A study of Mus musculus with 8 samples.

Results

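The Cyp2c gene cluster on mouse chromosome 19 was described here for the histone mark H3K27me3, from chromatin immunoprecipitation sequencing (ChIP-seq) of liver. Its members were chosen by position and by gene name: an approximate mm9 window of 1.2 Mb, from 39070001 to 40270000, taken as 120 bins of 10 kb out of 240106 such bins over the 19 autosomes, and within it 8 genes, Cyp2c55, Cyp2c29, Cyp2c38, Cyp2c39, Cyp2c37, Cyp2c54, Cyp2c50 and Cyp2c70. All livers were from males of the outbred CD-1 stock at 7 weeks of age. The treated mice had received TCPOBOP at 3 mg/kg 3 h before liver collection, and the control mice the vehicle, 1% DMSO in corn oil, over the same 3 h. DNA fragments of 600 to 1100 bp, digested to 500 bp, gave 3 TCPOBOP and 3 vehicle libraries from 6 individual livers. Replicate 1 of each treatment gave 1 further library from fragments over 1100 bp, digested to 200 bp. Whole liver was used, so fewer cells carrying the mark and less of it per cell cannot be told apart.

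H3K27me3 is laid down by Polycomb repressive complex 2 and marks genes that are held silent, most often at promoters rich in CpG dinucleotides. TCPOBOP activates CAR, a nuclear receptor that then enters the hepatocyte nucleus and switches on genes of drug metabolism. Cyp2c genes encode cytochrome P450 enzymes of the endoplasmic reticulum that oxidise drugs, arachidonic acid and other lipids, and in mouse they lie side by side on chromosome 19 as products of repeated duplication. Cyp2c55, Cyp2c29, Cyp2c37, Cyp2c50 and Cyp2c54 are known as genes that CAR activators induce in mouse liver.

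Each library was available as a list of islands, stretches of H3K27me3 signal that passed the authors' threshold, with the authors' score for each island. In the gene order of assembly GRCm38.p6, 14 protein-coding genes lie between Cyp2c55 and Cyp2c70 with both ends counted, all of them Cyp2c genes, with 4 pseudogenes among them. Besides the 8 members these are Cyp2c65, Cyp2c66, Cyp2c67, Cyp2c68, Cyp2c40 and Cyp2c69. The window was cut into 10 sections, each named for the gene or genes it is thought to hold. These sections follow approximate mm9 positions from general knowledge, not an annotation, so an island is placed in a section and not in an exon, an intron or a promoter. The section of Cyp2c38 stands before that of Cyp2c39, whereas in GRCm38.p6 the more proximal of the 2 starts of Cyp2c39 precedes Cyp2c38 and the other follows it. Which of these 2 genes an island in either section overlies was therefore not determined. As a check of the tissue, a window over HoxA, a classical Polycomb target, was 100% covered in each of the 8 libraries, and a window spanning the serum albumin gene Alb and its neighbour Afp was 0% covered in each.

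The RefSeq promoters of the cluster are shown for their CpG content, since Polycomb targets are known for promoters rich in CpG. The table matched 13 of the 14 genes and 7 of the 8 members, all but Cyp2c54, and Cyp2c39 has 2 starts in it. The lines below give the 250 bases before the gene start, 5′ to 3′, in GRCm38.p6, with CpG dinucleotides in capitals. Cyp2c55 and Cyp2c29 are shown as CAR-inducible members, Cyp2c37 and Cyp2c50 as a pair of inducible near copies, Cyp2c40 and Cyp2c69 as the most alike pair, and Hoxa11 as a promoter of the HoxA cluster with a CpG count among the nearest to that cluster's median.
Cyp2c55 (plus strand): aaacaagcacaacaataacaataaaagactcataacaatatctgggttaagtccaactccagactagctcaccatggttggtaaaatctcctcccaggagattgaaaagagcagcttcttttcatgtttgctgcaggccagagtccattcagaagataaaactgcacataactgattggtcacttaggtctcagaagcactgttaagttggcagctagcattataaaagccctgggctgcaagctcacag
Cyp2c29 (plus strand): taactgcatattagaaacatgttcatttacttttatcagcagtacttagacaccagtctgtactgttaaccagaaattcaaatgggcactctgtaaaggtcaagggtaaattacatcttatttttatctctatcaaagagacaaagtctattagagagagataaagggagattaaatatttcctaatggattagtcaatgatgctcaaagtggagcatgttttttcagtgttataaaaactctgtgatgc
Cyp2c37 (plus strand): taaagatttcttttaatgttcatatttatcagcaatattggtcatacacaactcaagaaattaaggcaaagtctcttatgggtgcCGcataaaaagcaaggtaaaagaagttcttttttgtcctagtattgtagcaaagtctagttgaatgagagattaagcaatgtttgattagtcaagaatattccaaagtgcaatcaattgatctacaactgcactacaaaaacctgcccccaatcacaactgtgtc
Cyp2c50 (plus strand): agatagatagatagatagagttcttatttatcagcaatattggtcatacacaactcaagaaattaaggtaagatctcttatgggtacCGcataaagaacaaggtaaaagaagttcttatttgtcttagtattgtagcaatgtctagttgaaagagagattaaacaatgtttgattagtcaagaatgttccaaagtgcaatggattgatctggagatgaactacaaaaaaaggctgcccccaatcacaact
Cyp2c40 (minus strand): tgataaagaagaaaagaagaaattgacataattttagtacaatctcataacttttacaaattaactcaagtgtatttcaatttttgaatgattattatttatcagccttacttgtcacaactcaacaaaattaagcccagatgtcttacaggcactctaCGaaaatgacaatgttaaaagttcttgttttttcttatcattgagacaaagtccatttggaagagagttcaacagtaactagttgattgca
Cyp2c69 (minus strand): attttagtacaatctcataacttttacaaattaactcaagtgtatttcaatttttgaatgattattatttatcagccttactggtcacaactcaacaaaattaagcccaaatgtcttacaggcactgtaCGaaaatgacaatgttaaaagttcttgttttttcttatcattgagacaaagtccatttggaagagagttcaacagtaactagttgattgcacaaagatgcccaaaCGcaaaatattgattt
Hoxa11 (minus strand, chromosome 6): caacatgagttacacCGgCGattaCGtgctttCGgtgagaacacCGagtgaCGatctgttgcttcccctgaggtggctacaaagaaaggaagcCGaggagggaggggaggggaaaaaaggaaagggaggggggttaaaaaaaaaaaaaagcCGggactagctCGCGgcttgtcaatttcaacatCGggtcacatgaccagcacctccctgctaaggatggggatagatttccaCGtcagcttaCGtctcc

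These promoters were poor in CpG. The 14 Cyp2c promoters held 0 to 4 CpG dinucleotides in 250 bases, with a median of 1, against a median of 10 over 21255 promoters of protein-coding genes and 15.5 over 10 Hoxa promoters. Cyp2c55, Cyp2c29 and Cyp2c38, an arachidonic acid metabolising enzyme, held 0, as did 6.61% of all promoters. Cyp2c70, which makes muricholic bile acids in mouse, held the most, 4, a count at or above that of 33.7% of all promoters. The share of G and C was 29.2 to 42.4% in the cluster, with a median of 33.4%, against a median of 55.6% over all promoters. The motif TATAAA, searched on both strands, was present in 7 of 14 Cyp2c promoters, or 50%, and in 11.6% of all promoters. AGGTCA, the half-site that nuclear receptors such as CAR bind in pairs, was present on either strand in 3 of 14, in Cyp2c29, Cyp2c70 and 1 start of Cyp2c39, and in 12.8% of all promoters. Promoters of different Cyp2c genes were identical at 66.7 to 98.6% of their aligned bases, with a median of 74.3%. The genes are products of repeated duplication, so their promoters are not independent cases.

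**Figure D1:**
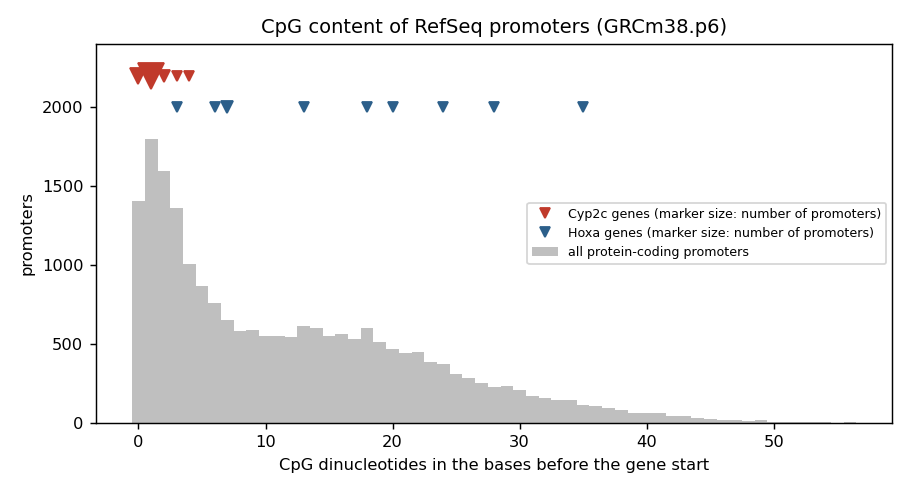
Number of CpG dinucleotides (horizontal axis) in the 250 bases before the start of protein-coding genes, as a histogram of promoters (vertical axis), with triangles for the 14 Cyp2c promoters and the 10 Hoxa promoters at arbitrary heights and sized by how many share a count. The Cyp2c triangles lie between 0 and 4 and the Hoxa triangles between 3 and 35.

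Of 90 pairs of promoters of different genes in the cluster, 7 were identical at 90% or more of their aligned bases. Cyp2c40 and Cyp2c69, P450 genes known to be expressed more in livers of female mice than of males, were identical at 217 of 220 aligned bases (98.6%). Cyp2c37 and Cyp2c50 were identical at 214 of 242 aligned bases (88.4%). The sources used here do not give how reads that match more than 1 copy were handled, and their part in the islands of the cluster was not tested.

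Most of the cluster carried no island. Of the 1.2 Mb, 1134 kb (94.5%) was free of islands in all 8 libraries, in particular from 39636801 to 40000000 (363 kb), from 39070001 to 39346000 (276 kb), from 39370001 to 39622800 (253 kb) and from 40053601 to 40270000 (216 kb). Of the 120 bins, 11 (9.17%) touched an island in at least 1 of the 6 livers, against 27.3% of all bins of the autosomes. No bin was covered over at least 50% of its length in all 6 livers, against 2.95% of all bins. A position without an island is not read as a position without the mark, since the lists hold only what passed the authors' threshold and give no read counts, so that depth is unknown.

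Islands covered 2.40, 2.27 and 0% of the window in TCPOBOP replicates 1, 2 and 3, and 1.13, 3.73 and 4.90% in vehicle replicates 1, 2 and 3. The autosomes outside the window were covered to 10.3, 11.7 and 7.25% in the TCPOBOP livers and to 14.2, 11.8 and 8.16% in the vehicle livers. The window was thus covered less than the autosomes of the same liver in 6 of 6 livers, with a mean difference of -8.16 percentage points (two-sided exact sign-flip permutation test over 6 livers, p = 0.031, the smallest this test can give). The mean over autosomes is raised by wide domains elsewhere. Set against 1989 other stretches of 1.2 Mb, 33.2% had a mean cover at or below the 2.41% of the window, and the median stretch had 6.36%. Low cover as such is therefore shared with many other regions.

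The neighbouring DNA on either side carried more islands than the cluster. The 1.2 Mb distal of the window was covered to 26.2, 28.4 and 20.8% in the TCPOBOP livers and to 34.4, 29.7 and 20.6% in the vehicle livers. The 1.2 Mb proximal of it was covered to 11.7, 16.0 and 7.03% in the TCPOBOP livers and to 17.5, 17.3 and 6.83% in the vehicle livers, which is below the autosomes in replicate 3 of each treatment. The window was lower than either flank in 6 of 6 livers, with mean differences of -24.3 percentage points from the distal flank and -10.3 from the proximal flank (two-sided exact sign-flip permutation test over 6 livers, p = 0.031 for each). The flanks were added to the comparisons after the data had been seen.

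**Figure D2:**
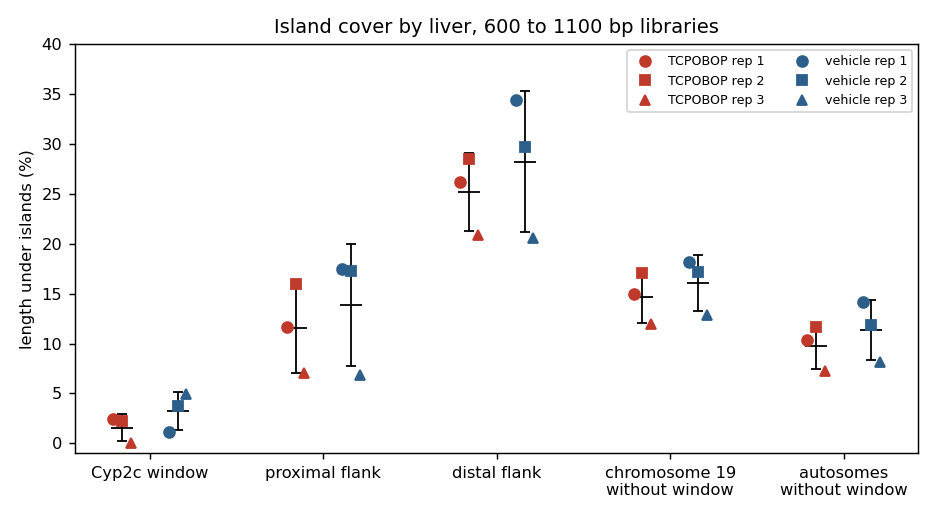
Percent of length under islands (vertical axis) in the 3 TCPOBOP and 3 vehicle livers for the Cyp2c window, its 1.2 Mb flanks, the rest of chromosome 19 and the rest of the autosomes; bars give the mean and SD of 3 livers. All 6 livers lie at 4.90% or less in the window and at 20.6% or more in the distal flank.

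**Figure D3:**
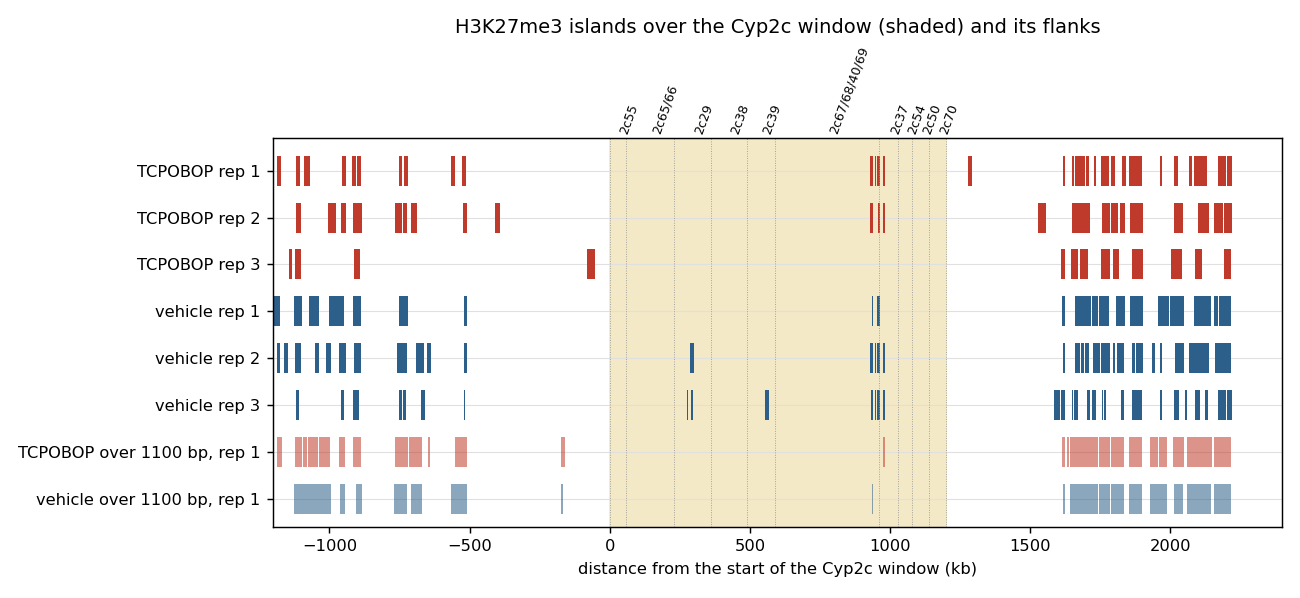
Islands (blocks) in each of the 8 libraries along the Cyp2c window (shaded, 0 to 1200 kb, with its sections named on top) and 1.2 Mb on either side, by distance from the window's start in kb. Blocks are dense distal of the window, and inside it they gather just past its 930 kb mark.

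Cyp2c55, an arachidonic acid hydroxylase gene induced strongly through CAR, had no island over it in either treatment. Its approximate stretch from 39081000 to 39117000 was 0% covered in each of the 8 libraries. The island-free interval around it was 1442, 1322 and 1663 kb long in TCPOBOP replicates 1, 2 and 3, and 1446, 796 and 791 kb in vehicle replicates 1, 2 and 3. The median interval between islands was 30.8, 45.2 and 99.6 kb in the TCPOBOP lists and 37.2, 29.6 and 41.6 kb in the vehicle lists. The nearest island on the proximal side ended 51.2 kb before the window in TCPOBOP replicate 3, less than that list's median interval, and 392 to 515 kb before it in the other 5 livers. By length the interval ranked 248 of 13716, 301 of 10170 and 269 of 6274 in the TCPOBOP lists and 274 of 10019, 495 of 14691 and 552 of 12393 in the vehicle lists. In the fragments over 1100 bp it was 1137 kb in the TCPOBOP library (rank 184 of 21967) and 1103 kb in the vehicle library (rank 230 of 17493).

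The same held for other members. In 5 of the 8 member sections, those of Cyp2c55, Cyp2c38, Cyp2c54, Cyp2c50 and Cyp2c70, no library held an island, where the sections of Cyp2c38 and Cyp2c39 may be exchanged. The section of Cyp2c65 and Cyp2c66, genes known from intestine, held none either. These 6 sections made up 530 kb and are thought to hold 7 of the 14 genes. With 0% in every liver they show no difference between TCPOBOP and vehicle that these lists could reveal.

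**Figure D4:**
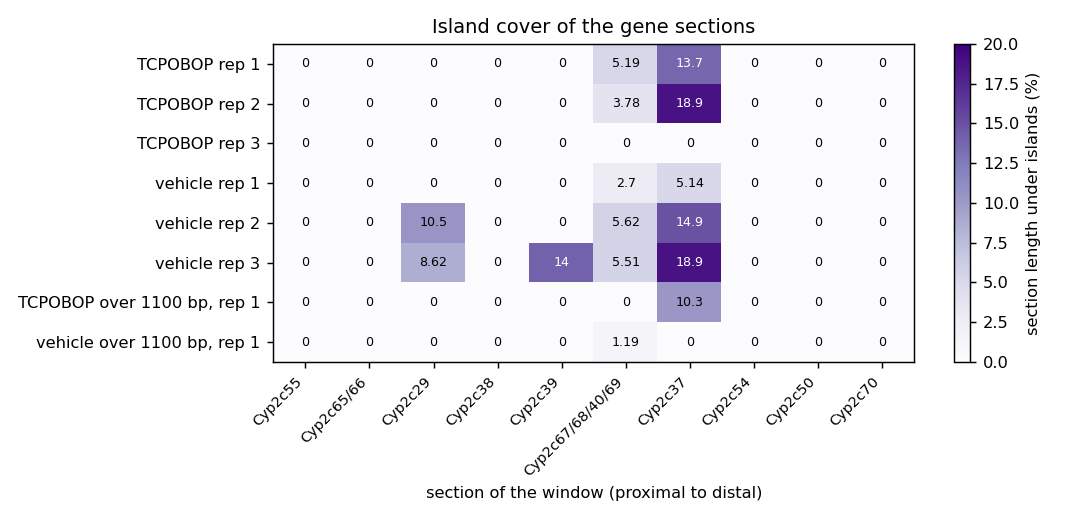
Percent of each section's length under islands (numbers and shade) for the 10 sections of the window from proximal to distal (columns) in the 8 libraries (rows). Values above 0 occur in the sections of Cyp2c29, Cyp2c39, Cyp2c67 to Cyp2c69 and Cyp2c37, and reach 18.9% in that of Cyp2c37.

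Islands in the 6 livers fell at 7 positions, and 4 of these formed a group of 53.6 kb, from 40000001 to 40053600. The group straddles the edge between the section of Cyp2c67, Cyp2c68, Cyp2c40 and Cyp2c69 and the section of Cyp2c37, an arachidonic acid hydroxylase gene. In the GRCm38.p6 order the pseudogene Cyp2c71-ps lies between Cyp2c69 and Cyp2c37, and which of these the islands overlie was not determined. The group held all of the window's cover in TCPOBOP replicates 1 and 2 and vehicle replicate 1, and 69.6 and 57.1% of it in vehicle replicates 2 and 3.

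The first position, from 40000001 to 40010000, carried islands of 9.6, 9.6 and 0 kb in TCPOBOP replicates 1, 2 and 3 and of 4.8, 10 and 9.2 kb in vehicle replicates 1, 2 and 3. The second, from 40016001 to 40021600, carried 4.4, 0 and 0 kb in the TCPOBOP livers and 0, 5.2 and 5.6 kb in the vehicle livers. At the third, from 40024401 to 40036000, the values were 8.4, 10.4 and 0 kb in the TCPOBOP livers and 8.8, 9.2 and 11.6 kb in the vehicle livers. In the full lists the first and the third position were thus present in 5 of 6 livers, with TCPOBOP replicate 3 the exception, and the treatments overlapped at each. The fourth, from 40046401 to 40053600, carried 6.4, 7.2 and 0 kb in the TCPOBOP livers and 0, 6.8 and 7.2 kb in the vehicle livers. The same 5 livers shared cover over 2 stretches, 4.8 kb from 40005201 to 40010000 and 7.6 kb from 40025601 to 40033200. With all lists cut to equal covered length, islands covered 0% of the window in TCPOBOP replicates 2 and 3 and vehicle replicate 1. Presence in 5 livers was therefore seen in the full lists and not at equal covered length.

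**Figure D5:**
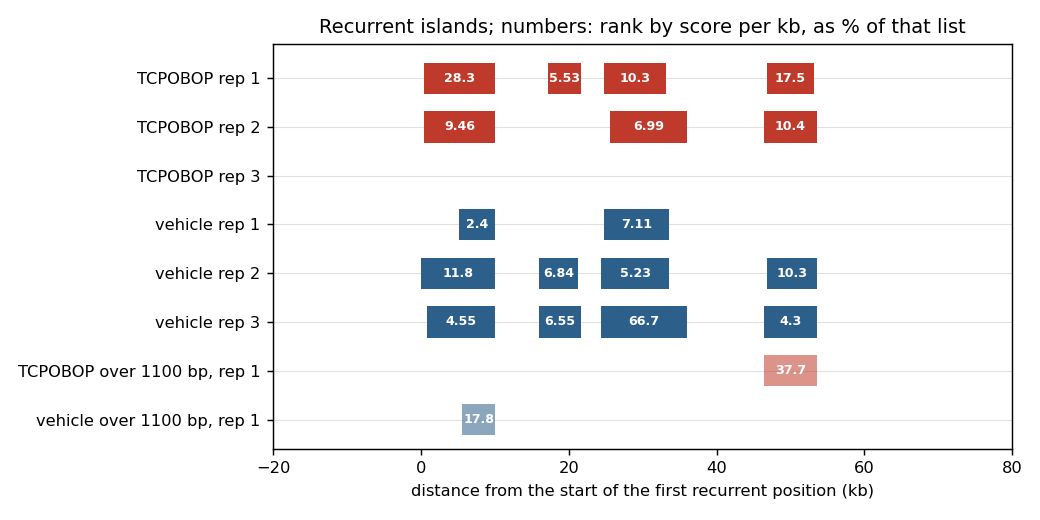
The 4 recurrent positions in the 8 libraries by distance in kb from the start of the first; the number in each block is the island's rank by score per kb as a percent of its list, low for dense islands. TCPOBOP replicate 3 has no block, and each of the other 5 livers has a block at the first and the third position.

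These islands were narrow and dense. Ranked by score per kb within their own list, 15 of the 17 islands of the group in the 6 livers stood in the top 20%, with a median of 7.11% and a range of 2.40 to 66.7%. Narrow islands tend to rank high by that measure. By total score they stood between 20.2 and 95.9% from the top of their lists, with a median of 53.4%, and among islands of 4 to 14 kb in the same list between 4.39 and 90.5%, with a median of 27.1%. Vehicle replicate 3 held the island of the first position at rank 2517 of 12430 by score, and TCPOBOP replicate 2 that of the fourth at rank 9777 of 10197. Scores are relative to a background modelled for each list, so ranks were taken within a list alone. A common score minimum, applied to all lists as a check, does set scores of different lists against the same value. Its results carry this limit.

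Recurrence in 5 livers was common for islands of this size. Of the islands of 4 to 14 kb on the autosomes, those overlapped by an island in at least 4 of the other 5 livers made up 41.9, 66.9 and 92.0% in TCPOBOP replicates 1, 2 and 3 and 56.2, 32.3 and 52.2% in vehicle replicates 1, 2 and 3. Within the window, 2 of 4 and 2 of 3 islands of TCPOBOP replicates 1 and 2 met this, and 2 of 2, 2 of 5 and 2 of 7 islands of vehicle replicates 1, 2 and 3.

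The other 3 positions appeared in vehicle livers only, in 1 or 2 of 3. In the section of Cyp2c29, an abundant liver P450 gene inducible through CAR, vehicle replicate 2 had an island of 13.6 kb from 39356401 to 39370000. Vehicle replicate 3 had an island of 7.2 kb within it, from 39359201 to 39366400, and another of 4 kb from 39346001 to 39350000. In the section named for Cyp2c39, a retinoic acid hydroxylase gene, which may also hold Cyp2c38, vehicle replicate 3 had an island of 14 kb from 39622801 to 39636800. These 4 islands lay 81.3 to 96.5% from the top of their lists by score. By score per kb, the 4 kb island stood at 7.42%, close to the median of the recurrent group, and the other 3 stood at 48.8 to 94.8%. Their scores were 42.0 to 53.0. The lowest score listed was 44.2, 71.0 and 77.7 in TCPOBOP replicates 1, 2 and 3, and 84.6 in vehicle replicate 1. Scores are not on a common scale between lists, and the part of these minima in the absence of islands was not tested. The absence is therefore not read as a difference between treatments.

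Whether TCPOBOP altered the mark at this cluster within 3 h was asked of the window, of its sections and of its bins. Islands covered on average 1.56 ± 1.35% of the window with TCPOBOP and 3.26 ± 1.93% with vehicle (SD, n = 3 each), and TCPOBOP minus vehicle was -1.70 percentage points (two-sided exact permutation test, p = 0.3). The livers overlapped, and the smallest p that 3 livers against 3 allow is 0.1. Relative to the autosomes of the same liver the difference was -0.0613 percentage points (two-sided exact permutation test, p = 1). The window difference was -2.76 without vehicle replicate 1, -0.922 without TCPOBOP replicate 3 and -0.878 without vehicle replicate 3. It was -0.767 with a common score minimum and -0.419 with the window widened by 100 kb on each side.

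The lists also differed in make-up within each treatment. TCPOBOP replicates 2 and 3 and vehicle replicate 1 had wider islands, with medians of 22.8, 24.4 and 26.8 kb, and TCPOBOP replicate 1 and vehicle replicates 2 and 3 narrower ones, with medians of 14.4, 15.2 and 12.8 kb. TCPOBOP replicate 3, the library with no island in the window, also had the shortest list, at 6295 islands over 174 Mb. The other 5 lists held 10057 to 14748 islands over 196 to 340 Mb. With all lists cut to 174 Mb, the window was covered to 0.7, 0 and 0% in TCPOBOP replicates 1, 2 and 3. In vehicle replicates 1, 2 and 3 it was then covered to 0, 1.6 and 2.8%. TCPOBOP minus vehicle was then -1.23 percentage points (two-sided exact permutation test, p = 0.4). Whether list length is the cause of the differences between livers was not tested.

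Of the 4 sections with islands, none separated the treatments. That of Cyp2c37 was covered to 13.7, 18.9 and 0% in TCPOBOP replicates 1, 2 and 3 and to 5.14, 14.9 and 18.9% in vehicle replicates 1, 2 and 3. Its cover averaged 10.9 ± 9.75% with TCPOBOP and 12.95 ± 7.05% with vehicle (SD, n = 3 each), and TCPOBOP minus vehicle was -2.10 points (two-sided exact permutation test, p = 0.7, adjusted over 10 sections 1). Without TCPOBOP replicate 3 this difference was 3.33 and without vehicle replicate 3 it was 0.857, while it was -6.10 without TCPOBOP replicate 2 and -6.48 at equal covered length. The section of Cyp2c67 to Cyp2c69 was covered to 5.19, 3.78 and 0% in the TCPOBOP livers and to 2.70, 5.62 and 5.51% in the vehicle livers, a difference of -1.62 (exact permutation p = 0.5, adjusted 1). Leaving out TCPOBOP replicate 3 gave -0.126, leaving out TCPOBOP replicate 1 gave -2.72, and leaving out vehicle replicate 1 gave -2.58. Those of Cyp2c29 and Cyp2c39 were 0% covered in each TCPOBOP liver. In the vehicle livers that of Cyp2c29 was covered to 0, 10.5 and 8.62% (difference -6.36, exact permutation p = 0.4, adjusted 1), and that of Cyp2c39 to 0, 0 and 14% (difference -4.67, exact permutation p = 1, adjusted 1). With the score minimum, or with all lists at equal covered length, neither of these 2 sections held an island in any liver.

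Among bins, 0 of the 11 with an island were higher in all 3 TCPOBOP livers than in any vehicle liver, and 0 were lower in all 3. Over the 65641 such bins of the autosomes, 0.842% were higher and 2.55% lower in this sense. At such shares a count of 0 among 11 bins does not stand apart from the background. Without vehicle replicate 1, 3 of the 11 bins (27.3%) were lower, against 4.74% of all bins with an island in the remaining 5 livers. With each of the other 5 livers left out, 0 or 1 bin of the window was lower, against 3.62 to 9.04% of all such bins.

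Set against the rest of the window, no section passed the threshold. The Cyp2c37 section was covered more than the rest of the window in 5 of 6 livers, by 10.1 percentage points on average (11.9% against 1.82%), and that of Cyp2c67 to Cyp2c69 in 5 of 6, by 2.02 points. Each gave p = 0.0625 in the two-sided exact sign-flip permutation test over 6 livers, adjusted over 10 sections 0.0781. The Cyp2c37 difference became 6.44 points under the score minimum and 4.15 once lists had equal covered length, and that of Cyp2c67 to Cyp2c69 was 0.234 when the section was trimmed by 1 bin at each edge. The 6 sections without islands are lower by construction and give no test. TCPOBOP replicate 3, at 0% throughout, adds no difference to these tests, which with it cannot go below this p.

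Cyp2b10, the P450 gene on chromosome 7 that CAR activators classically induce, is given beside Cyp2c55 as a description, chosen after the data had been seen. Its window of 5 bins was, like the sections, not taken from an annotation. This window was covered to 32.8, 20 and 19.2% in the TCPOBOP livers and to 48, 40 and 38.4% in the vehicle livers. The Cyp2c55 section was at 0% in each of these livers. Lower cover with TCPOBOP without overlap was also met in 2.55% of single 10 kb bins with an island on the autosomes. Such bins are a smaller unit than this window. In the fragments over 1100 bp the Cyp2b10 window was covered to 0% with TCPOBOP and 15.2% with vehicle.

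The fragments over 1100 bp gave less cover in the window than their wide territory elsewhere. The window was covered to 0.60% in the TCPOBOP library and 0.367% in the vehicle library, and the autosomes to 28.1% in the TCPOBOP library and 27.2% in the vehicle library. Of the 1989 other stretches of 1.2 Mb, 8.55% in the TCPOBOP library and 10.1% in the vehicle library had cover at or below that of the window. Each library held 1 island there, of 7.2 kb at the fourth position with TCPOBOP and of 4.4 kb at the first position with vehicle. By score these ranked 18050 of 22077 in the TCPOBOP list and 17571 of 17577 in the vehicle list. From the same pair of livers, the fragments of 600 to 1100 bp gave 4 islands with TCPOBOP and 2 with vehicle. With 1 library per treatment these values have no test.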

How the data were processed

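H3K27me3 ChIP-seq islands from 8 libraries of mouse liver were analysed. The score of each island is the authors' own deposited value. Bowtie2 2.3.2, SICER 1.1 and the build mm9 are named, without roles, in the submitters' processing notes. The file names carry a 400 bp window, a 2400 bp gap and an E value of 100. Islands were listed per library. The sources used here do not state whether an input was used. The lists hold no read counts, so depth is unknown and no counting interval was computed.

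Cover was the percent of a region under islands, with coordinates in mm9 and 1-based. The autosomal span ran from the first to the last island of any list on each autosome. Treatments were compared by two-sided exact permutation tests over 20 labellings and regions within livers by exact sign-flip tests over 64 sign choices, with Benjamini-Hochberg adjustment over sections and a threshold of 0.05. Coverage functions were tested on simulated data. Alternatives were a score minimum of 84.6, lists cut to 174 Mb (equal covered length), each liver left out, a replicate block, a widened window, trimmed sections, merged libraries, bins of 5 and 20 kb, and any overlap or 80% in place of 50%. Promoters came from RefSeq and were aligned with Biopython 1.88, global with free end gaps. Figures were drawn with matplotlib 3.10.9, and tables were handled in pandas 2.3.3 and numpy 2.4.6 under Python 3.11.15.

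Members, sections and the rule for named items (the Cyp2c genes by section, the islands of the window, its longest shared or island-free stretches and separating bins) were chosen with earlier results of these data known. Sections are approximate. Gene coordinates of GRCm38.p6 served for the order and count of the genes and for the promoters, and placed no section or island.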

Additional observations from a re-analysis of the deposited data

How the results depend on the processing

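The window difference of -1.70 percentage points stayed negative under the 11 alternatives run, at -2.76 to -0.878 with 1 liver left out. Relative to the autosomes the difference of -0.0613 turned to 0.510 with the score minimum and 1.22 with the widened window, and ranged from -2.51 to 2.37 with 1 liver left out; the cause was not tested. The window stayed below the autosomes under the 10 alternatives run, by -13.9 to -6.40 points; with 1 liver left out it was -9.14 to -7.19, where 5 livers cannot give a p under 0.0625.

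Bins lower with TCPOBOP numbered 0 to 3 with 1 liver left out, which loosens the rule. Against the rest of the window, the Cyp2c29 section (0.868) became -1.31 under the score minimum and -0.953 after cutting lists to one length, and ranged from -0.468 to 1.58 with 1 liver left out. The Cyp2c39 section (-0.0788) became 0.548 when trimmed, and ranged from -2.08 to 0.720 with 1 liver left out. With 1 liver left out, the Cyp2c37 treatment difference (-2.10) lay between -6.10 and 3.33, and it was -5.71 under the score minimum, -6.48 after cutting lists to one length and -0.267 when trimmed. These causes were not tested. The labels give shared replicate numbers and no shared animals. Between treatments, livers with the same number had deviations correlated at 0.0291, 0.0225 and 0.0814, and 4 of 6 livers correlated best with their own number. With the replicate block the window difference of -1.70 had an exact p of 0.5, and the block changed no call.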

Other observations

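The low cover reached beyond the window on both sides. Proximally, the nearest island ended 512, 392 and 51.2 kb before the window in TCPOBOP replicates 1, 2 and 3, and 510, 510.0 and 515 kb before it in vehicle replicates 1, 2 and 3. Distally, the nearest island began 76.8, 327 and 412 kb after the window in the TCPOBOP livers and 413, 416 and 384 kb after it in the vehicle livers. In both libraries of fragments over 1100 bp the distal edge lay at a like distance, 413 kb with TCPOBOP and 418 kb with vehicle. The island near the proximal end in TCPOBOP replicate 3, the liver with no island inside the window, was met in none of the other 5 livers.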
